A study of Capsicum annuum with 5 samples.

Results

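The stem library of pepper (Capsicum annuum, inbred line Zunla 1) was compared with the root, leaf, flower and fruit libraries of the same line, 1 library for each of the 5 tissues. The members were taken from the deposited miRNA annotation by typing: all 314 lines for 5′ and 3′ mature sequences, with each distinct sequence counted once within its family, the family being the number in the name of its hairpin. This gave 245 distinct sequences in 64 families, of which 126 sequences in 45 families had at least 1 stem tag. The groups were developing stems, developing roots, mature leaves, fully open flowers and fruits, with no treatment or genetic change in any of them. Stems, roots and leaves came from soil-grown plants kept at 22 °C with 16 h of light and were harvested at full bloom. The fruit was labelled mature green, whereas the series text describes fruit turning red 30 days after pollination. How many plants went into a library is unknown here, and no transcripts were measured against which the tissue labels could be checked.

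Plant miRNAs are cut from hairpin transcripts, and 1 strand of the resulting duplex, the guide, is loaded into an ARGONAUTE protein, where it directs cleavage or translational repression of transcripts that match it closely. The other strand is called the passenger. Many conserved families regulate transcription factors that place organs and vascular tissue, and related members of a family may be produced from separate genes with separate expression. The stem carries the vascular strands, in which class III HD-ZIP factors, the targets of miR166, are known in Arabidopsis to set the pattern.

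Each sequence had a whole-number tag count per library. Counts of the listed sequences, each taken once, summed to 318815 in stem, 231560 in root, 542531 in leaf, 678695 in flower and 311417 in fruit, and these sums are not the depth of the libraries. Values below are counts or normalised tags, that is, tags per 1000000 listed tags of the same library. Hairpins with a total of 1 to 4 tags in a library were nearly missing from the file (1 of 825 hairpin and library totals), so a 0 means only that a sequence was listed at 0. Since each tissue is 1 library, differences have no replicate check and no test was possible. The 95% intervals cover counting error only.

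The 10 sequences with most stem tags held 88.5% of the listed stem tags. They are shown because nearly all of the stem profile is made of them, with the seed (bases 2 to 8) in capitals and T for U as in the file.
miR166a to miR166g, 3′ arm: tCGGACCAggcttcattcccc
miR166h and miR166i, 3′ arm: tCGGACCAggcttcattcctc
miR168a, 5′ arm: tCGCTTGGtgcaggtcgggac
miR4376, 5′ arm: aCGCAGGAgagatgatgctgga
miR5301, 5′ arm: tGTGGGTGgggtggaaagatt
miR156a to miR156c, 5′ arm: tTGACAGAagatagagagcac
miR156h, 5′ arm: tTGACAGAagagagtgagcat
miR156d to miR156f, 5′ arm: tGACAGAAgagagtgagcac
miRC16, 5′ arm: aAACGTTGaacttgtcggtat
miR164a, 5′ arm: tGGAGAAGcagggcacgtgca
Both miR166 sequences share a seed, as do miR156a to miR156c and miR156h, while miR156d to miR156f begin 1 base later and so have a seed of their own.

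Further sequences are shown because the comparisons of stem with single tissues turn on them, whether stem was the highest, the lowest or in between.
miR164b, 5′ arm: tGGAGAAGcagggcgcgtgca
miR390a, 5′ arm: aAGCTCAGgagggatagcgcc
miR390b, 5′ arm: aAGCTCAGgagggatagcacc
miR167a to miR167d, 5′ arm: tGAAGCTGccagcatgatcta
miR403, 3′ arm: tTAGATTCacgcacaaactcg
miR398c, 3′ arm: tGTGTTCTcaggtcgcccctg
miR4414b, 5′ arm: aTCTGCCGactcattcattca
miR4414b, 3′ arm: tGTGAATGatgcgggagataa
miRC11, 5′ arm: tCAGAATAtgatgatgtgagctt
miRC21, 3′ arm: aGAATCGGtttcttagttgta
miRC10, 5′ arm: tTGGAAGAgaagggtaaggtt
miRC24, 3′ arm: tATGCCATagaaattcgataat
The 2 forms of miR164 and the 2 forms of miR390 share their seeds and differ farther along.

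Of the 57 families with at least 10 tags over the 5 libraries, 12 (21.1%) were at least 2-fold higher in stem than the mean of the other 4 tissues and 20 (35.1%) at least 2-fold lower, on the scale log2(value + 1). The other 25 were less than 2-fold apart. Counts for groups of families given below are to be set beside the 21.1% and 35.1%. The same criterion gave 12 higher and 23 lower families in leaf, 19 and 22 in root, 7 and 38 in flower, and 7 and 31 in fruit. Stem was the highest of the 5 tissues in 12 families (21.1%) and, among families with no tie, the lowest in 6 (10.5%). Under median-of-ratios scaling, which lowers the log2 ratio of the median family by 0.49, stem was the highest in 7. Of the 12 higher families, 10 had their highest value in stem. The exceptions were miR403, where root was higher, and the candidate miRC7, where fruit was higher. In 4 of the 12, all candidates, stem alone had tags, so these passed the minimum through stem only and could not have come out otherwise. The same holds in the other direction for lower families listed at 0 in stem. Of the 20 lower families, 12 were listed at 0 in stem, and 6 of those had tags in 1 other tissue only. In 4 others stem had tags and was the lowest tissue. In miR408 and the candidate miRC2 stem was second of 5.

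**Figure D1:**
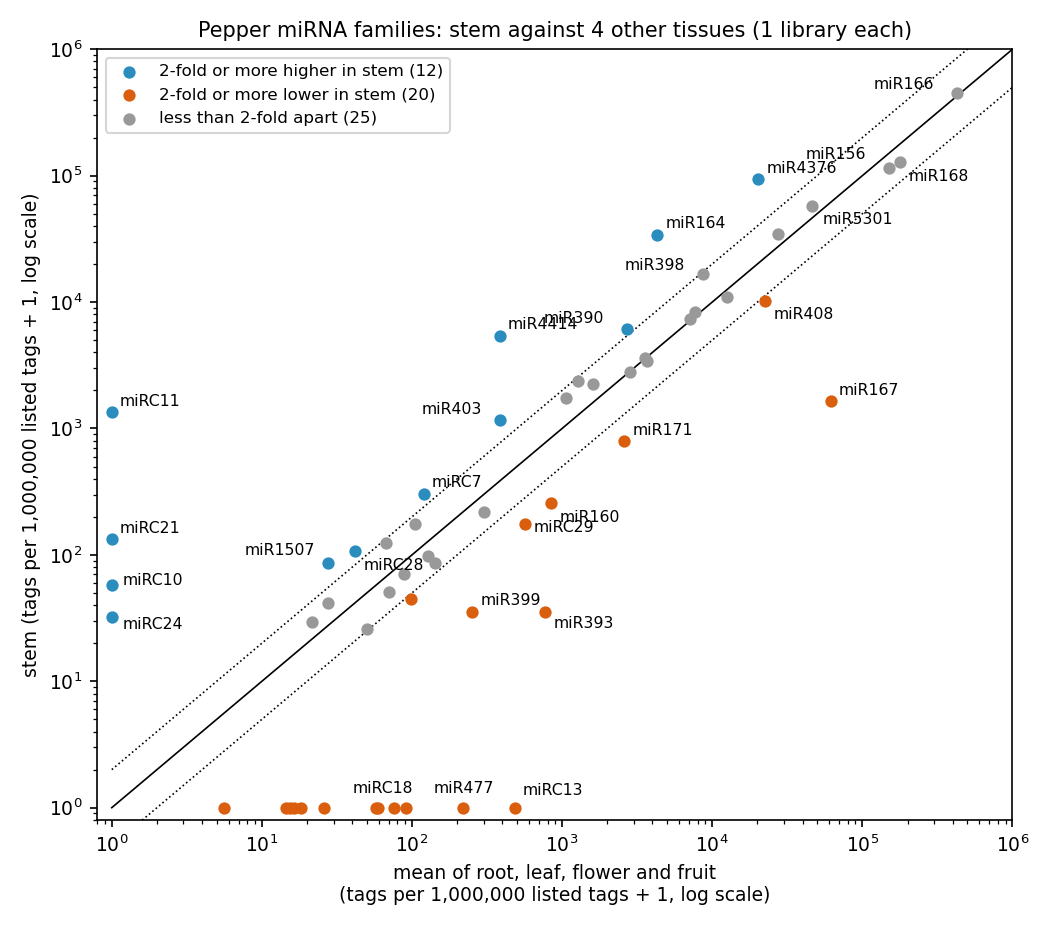
Each point is 1 of 57 miRNA families, with the stem value on the y axis and the mean of root, leaf, flower and fruit on the x axis, both in tags per 1000000 listed tags plus 1 on log scales, 1 library per tissue. The solid line marks equal values and the dotted lines a 2-fold difference, with miR164, miR4376 and miR4414 above the upper dotted line and miR167 far below the lower one.

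Among regulators of organ pattern and meristems, 6 families of the 7 looked for were listed, and 1 was higher, 0 were lower and 5 were less than 2-fold apart, with a median log2 ratio of 0.09 against -0.18 over all 57 families. The higher family was miR164, which represses NAC transcription factors that set organ boundaries. It had 10899 tags in stem, 604 in root, 1983 in leaf, 2190 in flower and 2407 in fruit. Stem stood above every other tissue, by 4.42-fold over fruit (95% interval 4.23 to 4.62) and by 13.1-fold over root (12.1 to 14.2) in normalised tags. Its log2 ratio to the mean of the others was 2.99 and lay between 2.25 and 2.99 over 4 ways of scaling.

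The 2 main forms of miR164 differed in how far stem led. miR164a, on chromosome 8 (132373612 to 132373701, plus strand), had 9705 tags in stem against 505 in root, 634 in leaf, 2004 in flower and 2106 in fruit. Its stem value was 26.05-fold that of leaf (24.04 to 28.3) and 4.50-fold that of fruit (4.29 to 4.72). miR164b differs from miR164a by A15G, counted from 1 at the 5′ end with the miR164a base first. It had 1161 tags in stem, 78 in root, 1334 in leaf, 178 in flower and 301 in fruit, and its stem lead over leaf was 1.48-fold (1.37 to 1.60). miR164a thus made up 89.1% of the 5′ arm tags of the family in stem and 32.2% in leaf, while in root, flower and fruit it held between 83.6% and 91.5%. A share within an arm does not depend on how libraries are scaled.

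miR166 was the most abundant family in stem with 142479 tags, and its stem value was close to the mean of the others (log2 ratio 0.06, between -0.72 and 0.30 over the 4 scalings). Its 3′ guide arm was made of 2 sequences that differ only by C20T, counted likewise with the base of miR166a first. The form of miR166a to miR166g had 111709 tags in stem, 36269 in root, 94959 in leaf, 185804 in flower and 107159 in fruit. The form of miR166h and miR166i had 28054 tags in stem, 47075 in root, 61636 in leaf, 86498 in flower and 84237 in fruit. Stem had the most one-sided makeup, with 79.9% of the arm in the first form (95% Clopper-Pearson interval 79.7 to 80.1) against 43.5% in root, 60.6% in leaf, 68.2% in flower and 56.0% in fruit. The ratio of the first form to the second was 3.98 in stem and between 0.770 and 2.15 elsewhere. With the lowest in place of the highest count over the hairpins of a sequence the stem share was 81.1% and the next highest, in flower, 69.7%. How the authors assigned tags with 1 mismatch is unknown here.

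The remaining listed members of this group were within the 2-fold limits. miR159, which represses MYB factors, was highest in stem, 1.51-fold above fruit (1.35 to 1.70), but flower was highest under median-of-ratios scaling. miR396, a regulator of growth-regulating factors, had 2655 stem tags and a log2 ratio of 0.13, which ranged from -0.54 to 0.13 over the scalings. miR319, a family known to target TCP factors, had 22 stem tags against 73 in root. All 73 root tags and 14 of the stem tags came from miR319c, whose 3′ arm has the same seed as the 3′ arm of miR4414b. The 3′ sequence shared by miR319a and miR319b had 8 tags in stem, 8 in fruit and 0 in root, leaf and flower. The contrast with root thus rested on miR319c, and whether that form targets TCP factors was not tested. miR394, which targets an F-box gene, had 27 stem tags against 228 in flower.

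Of the phase and flowering families miR156 and miR172 were listed, and neither was 2-fold higher or lower (median log2 ratio -0.28). miR156 holds plants in the juvenile phase by repressing SPL factors. Its family total in stem, 36830 tags, hid forms that went in different directions. miR156h, on chromosome 9 (1598999 to 1599089, plus strand), had 15126 tags in stem, 5832 in root, 4087 in leaf, 6634 in flower and 3692 in fruit, and stem was highest, 1.88-fold above root (1.83 to 1.94) and 6.30-fold above leaf (6.08 to 6.52) in normalised tags. The form of miR156a to miR156c had 16334 tags in stem and 218354 in flower, and its log2 ratio of stem to the mean of the others was -1.21. The shorter form of miR156d to miR156f had 5340 tags in stem and 14193 in root, with a log2 ratio of -0.14. miR156h therefore held 41.1% of the 5′ arm tags in stem (40.6 to 41.6), less than the 53.5% in fruit and more than the 16.1% in root, 9.12% in leaf and 2.88% in flower. Relative to miR156a to miR156c it carries T12G, A15T and C21T.

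miR172, which represses AP2-like factors and is known to act opposite to miR156 in phase change, had 3525 stem tags and a log2 ratio of -0.18. The form of miR172a to miR172d made up 85.5% of its 3′ arm tags in stem, between the 94.8% of leaf and the 74.3% of fruit. In root miR172h, which differs by A1T, held 48.0% with 3287 tags, but in stem it had 106 tags or 3.11%. The form of miR172e and miR172f, which differs by T21G, had 352 stem tags and was listed at 0 in root. The share of miR172h was 0.434% in leaf, 1.90% in fruit and 16.3% in flower, so it was root that stood out for this form.

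**Figure D2:**
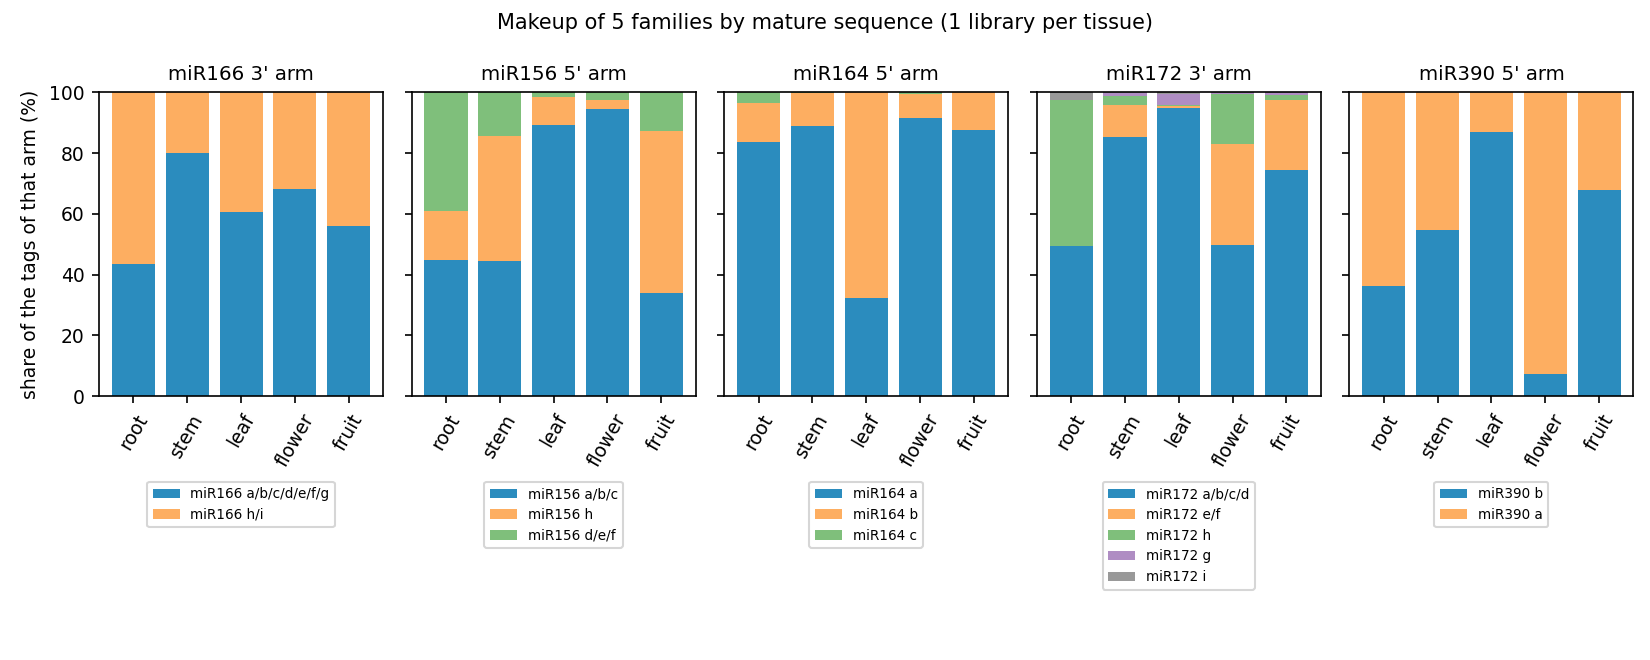
Stacked bars give the share of each mature sequence, in percent of the tags of that arm, for 5 families in the 5 tissues (1 library each), with sequences labelled by the letters of the hairpins that list them. In stem the miR166a to miR166g form holds 79.9% and miR156h 41.1%, and miR164a holds 89.1% in stem against 32.2% in leaf.

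Of the auxin families 1 of 4 was higher and 3 of 4 were lower, against 21.1% higher and 35.1% lower over all 57 families, and their median log2 ratio was -3.07. That median lies between the ratios of miR160 and miR393, whose tags were nearly all from passenger arms, as given below. The group count thus says little about guides beyond miR167 and miR390. miR167 represses auxin response factors of the activating class. It had 522 tags in stem, 6393 in root, 17042 in leaf, 39075 in flower and 40262 in fruit. Stem was the lowest tissue by far, and the next lowest, root, was 16.9-fold higher in normalised tags (15.4 to 18.5). The log2 ratio to the mean of the others was -5.23, between -6.07 and -5.23 over the scalings. Nearly all of it, 518 of the stem tags, was the guide sequence shared by miR167a to miR167d on chromosomes 3 and 6.

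miR390 starts the production of the TAS3 small interfering RNAs, which repress other auxin response factors. It was the higher family of the group, with 1949 tags in stem, 661 in root, 2388 in leaf, 1535 in flower and 393 in fruit, a lead of 1.39-fold over leaf (1.31 to 1.48). Its log2 ratio of 1.18 fell under the 2-fold limit with median-of-ratios scaling (0.55), with counts summed over hairpins (0.87) and without the fruit library (0.95). Under median-of-ratios scaling flower was higher than stem, and with counts summed over hairpins stem and leaf were nearly equal (ratio 1.00). Its 2 forms, which differ by A19G with the base of miR390b first, had 1050 (miR390b) and 874 (miR390a) stem tags. In leaf they had 2032 and 305, and in flower 109 and 1362, so miR390b held 54.6% of the arm in stem, 86.9% in leaf and 7.41% in flower.

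miR160, which represses a further class of auxin response factors, had 82 tags in stem, 78 in root, 396 in leaf, 1223 in flower and 153 in fruit. Stem was the lowest, but its interval against root included equality (root 1.31-fold higher, 0.948 to 1.81). Of its stem tags 79 were from the passenger arm and 3 from the guide. Passenger tags were most of this family in every tissue. The guide had 2 tags in root, 4 in leaf, 44 in flower and 14 in fruit. By these few guide tags stem was not the lowest, with 9.41 normalised tags against 8.64 in root and 7.37 in leaf. The log2 ratio of the miR160 guide alone was -1.64. miR393, which targets auxin receptors of the F-box class, had 11 stem tags against 1586 in leaf and between 14 and 24 elsewhere. Its lower call rested on leaf, since the intervals of stem against root, flower and fruit included equality, and without leaf the log2 ratio was -0.61 in place of -4.44. All 11 were from its passenger arm, which also held all tags in root and leaf and most in flower and fruit. The 4 families together took 0.804% of the listed tags in stem and between 3.09% and 13.1% in the other tissues. That gap came from miR167, which alone took 0.164% in stem and between 2.76% and 12.9% in the other tissues. Most of the share in stem was miR390, with 0.611%.

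**Figure D3:**
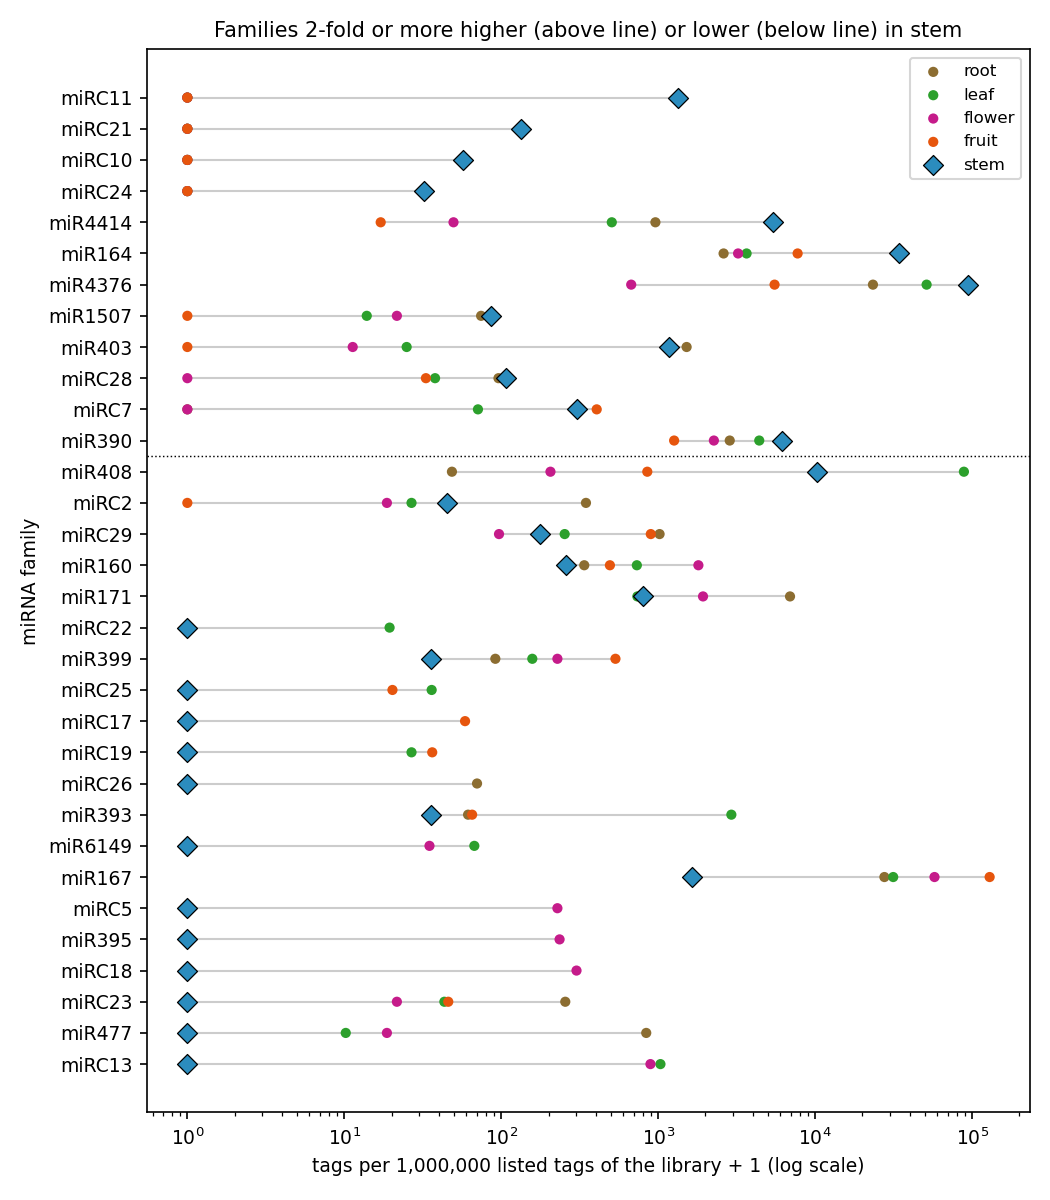
Rows are the 12 families at least 2-fold higher in stem than the mean of the other 4 tissues (above the dotted line) and the 20 at least 2-fold lower (below it), and points give tags per 1000000 listed tags plus 1 on a log scale, with diamonds for stem and circles for the other tissues (1 library each). A point at 1 is a family listed at 0, as for stem in 12 of the lower families.

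Of the 4 Solanaceae families listed among 7 looked for, 1 was higher and 0 were lower (median log2 ratio 0.38). miR4376, which in tomato targets a calcium-transporting ATPase, had 29928 tags in stem, 5404 in root, 27822 in leaf, 456 in flower and 1716 in fruit. Stem was highest, 1.83-fold above leaf (1.80 to 1.86) and 140-fold above flower (127 to 154), and it stayed highest under all 4 scalings, with a lead over leaf between 1.32-fold and 2.24-fold. miR5301 had 18470 stem tags and stood second to leaf, which was 2.75-fold higher (2.71 to 2.80), while stem was 3.44-fold above root (3.32 to 3.56) and 19.6-fold above fruit (18.3 to 20.9). Its direction against the mean of the others changed with the scaling (log2 ratio 0.33, from -0.13 to 0.59). miR5300 and miR5303 were less than 2-fold apart, with log2 ratios of 0.03 (-0.46 to 0.13 over the scalings) and 0.44 (-0.07 to 0.44).

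The 22 nt length class followed miR4376. Sequences of 22 nt took 10.2% of the listed tags in stem (Clopper-Pearson interval 10.1 to 10.3), 4.39% in root, 5.32% in leaf, 0.385% in flower and 0.945% in fruit. The 5′ arm of miR4376 alone was 9.39% of the stem tags. Without it the 22 nt share was 0.837% in stem and 2.06% in root, and root was then the highest. Sequences of 21 nt took 87.8% of the tags in stem, the lowest share of the 5 tissues, and between 89.3% and 98.6% elsewhere.

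**Figure D4:**
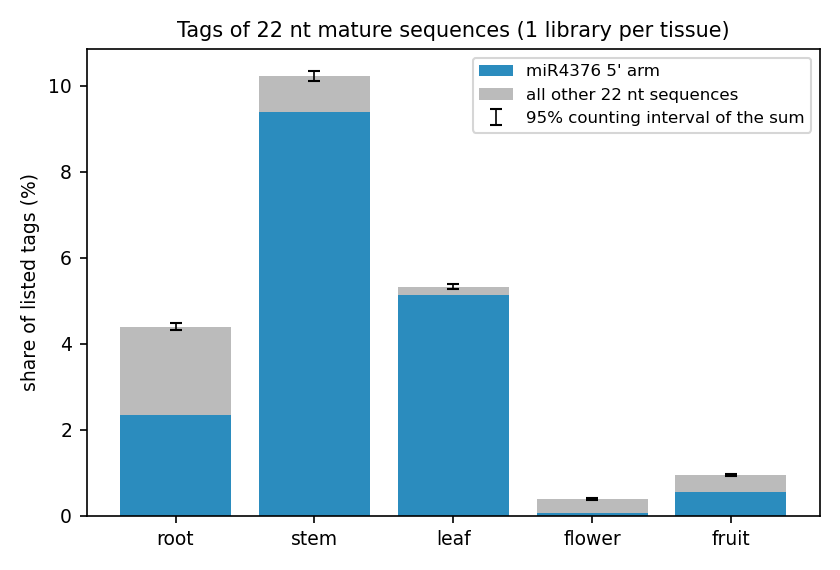
Bars start at 0 and give the share of listed tags from 22 nt sequences in percent by tissue (1 library each), split into the 5′ arm of miR4376 and the other 22 nt sequences, with the 95% Clopper-Pearson interval of the sum. Stem reaches 10.2%, of which miR4376 is 9.39%.

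The copper and laccase families had 0 higher and 1 lower of 3 listed (median log2 ratio 0.06). They took 3.43% of the listed tags in stem, 13.4% in leaf, 1.26% in root, 0.173% in flower and 0.484% in fruit. miR398, which targets copper/zinc superoxide dismutases, had 5308 tags in stem, 702 in root, 15703 in leaf, 197 in flower and 835 in fruit, so that leaf was 1.74-fold above stem (1.69 to 1.79) and stem 5.49-fold above root (5.07 to 5.95). The order changed with the arm. The guide of miR398c, on chromosome 12 (1699966 to 1700072, minus strand), had 402 tags in stem, 82 in root, 354 in leaf, 64 in flower and 159 in fruit, and stem was highest, 1.93-fold above leaf (1.67 to 2.24). Of its passenger, stem had 4891 tags and leaf 15338, and leaf was higher.

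miR408, which targets plantacyanin and laccase genes, had 3277 tags in stem, 11 in root, 48090 in leaf, 139 in flower and 265 in fruit. It counted as lower, with leaf 8.62-fold above stem (8.32 to 8.94), while stem stood 12.1-fold above fruit (10.7 to 13.7). Without leaf the log2 ratio was 4.80 in place of -1.13. All but 2 of the stem tags were from the passenger arm, which held at least 97.1% of the tags of this family in every tissue. miR397, which targets laccases of lignin formation, had 2350 stem tags, 2202 in root, 8850 in leaf, 838 in flower and 407 in fruit. In normalised tags root was 1.29-fold (1.22 to 1.37) and leaf 2.21-fold (2.11 to 2.32) above stem. Its log2 ratio was 0.06, from -0.38 to 0.26 over the scalings. Its passenger miR397a-3p, with 2238 tags in leaf, was listed at 0 in stem. Over the 23 families with a known guide arm, passenger arms made up 5.30% of the stem tags, 22.8% in leaf and between 1.75% and 2.19% in the other tissues. Much of this was miR398 and miR408, in which the passenger held most tags in every tissue. They gave 4902 and 3275 of the 13510 passenger tags in stem, and 15338 and 48088 of the 94598 in leaf. The sum is thus not a measure of strand use over families in general.

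In the small RNA pathway group 1 of 3 families was higher and 0 were lower (median log2 ratio -0.01). miR403 targets AGO2, which acts in antiviral defence. Its guide, the 3′ arm, had 372 tags in stem and 342 in root and was listed at 0 in leaf, flower and fruit. Its passenger was listed at 0 in stem and fruit and had 9 tags in root, 13 in leaf and 7 in flower. Root and stem were thus the tissues with listed guide tags, and root was 1.27-fold higher (1.09 to 1.47). miR168, which targets AGO1, had 40934 stem tags, or 128394 normalised tags against 136094 in fruit and 275829 in root, and its log2 ratio was -0.47 (-1.15 to -0.45). miR162, which targets DCL1, had 890 stem tags and a log2 ratio of -0.01 (-0.60 to 0.02).

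Both phosphate and sulfate families listed were lower in stem, against 35.1% of all 57 families. miR399, which maintains phosphate uptake by repressing PHO2, had 11 tags in stem, 21 in root, 85 in leaf, 154 in flower and 166 in fruit, and all 11 were passenger tags. Passenger tags were most of this family in the other tissues too. Fruit was 15.4-fold above stem (8.41 to 31.6), and root 2.63-fold above stem (1.21 to 6.04). miR395, which targets sulfate assimilation genes, had 159 tags in flower and was listed at 0 elsewhere, stem included. It passed the minimum through flower only, which fixed its direction. Of the GRAS and NF-YA group, miR171 was lower in stem, with 253 tags against 1601 in root, 399 in leaf, 1309 in flower and 254 in fruit. Root stood out in this family, 8.71-fold above stem (7.63 to 9.99), while the intervals of leaf and fruit against stem included equality. The guide arms of miR171 alone had 74 stem tags and a log2 ratio of -0.56, which is within the 2-fold limits. miR169 was less than 2-fold apart (716 stem tags, log2 ratio 0.48, from -0.49 to 0.48 over the scalings).

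Of the families that target NLR disease resistance genes, 3 of the 13 looked for were listed, and 1 was higher and 0 were lower. miR1507 had 27 tags in stem and 17 in root, 7 in leaf, 14 in flower and 0 in fruit. The interval against root included equality (1.15-fold, 0.606 to 2.26). Root was the highest under median-of-ratios scaling and with counts summed over hairpins. miR482 and miR5300 had 1086 and 1158 stem tags and log2 ratios of -0.11 and 0.03, and the latter turned with the scaling as given above.

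Among the 4 less conserved families 1 was higher and 1 was lower. miR4414 had 1728 tags in stem, 222 in root, 274 in leaf, 33 in flower and 5 in fruit. Stem was 5.65-fold above root (4.91 to 6.53) and stayed highest under all 4 scalings, with leads over root between 4.05-fold and 6.52-fold. Nearly all of these tags came from miR4414b, on chromosome 6 (210708619 to 210708709, plus strand), whose hairpin is printed with both mature arms in capitals because both arms were abundant in stem.
miR4414b: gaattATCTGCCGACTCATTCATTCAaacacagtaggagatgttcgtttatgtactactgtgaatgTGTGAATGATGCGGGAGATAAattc
The 3′ arm had 923 tags in stem, 100 in root, 274 in leaf, 7 in flower and 5 in fruit. The 5′ arm had 788 tags in stem and 49 in root and was listed at 0 in leaf, flower and fruit. Leaf thus had tags of the 3′ arm alone, whereas stem had both arms in similar numbers. The related miR4414a, on chromosome 3, was not led by stem, with 15 tags of its 3′ arm there and 68 in root. miR477 had 194 tags in root and was listed at 0 in stem.

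Candidate miRNAs, named miRC and known here only from the annotation, held 6 higher and 11 lower of 23 families (median log2 ratio -0.45), against 21.1% higher and 35.1% lower over all 57. Of the 6 higher, 4 had tags in stem alone, so the minimum fixed their direction. All of the 11 lower except miRC2 and miRC29 were listed at 0 in stem, and families listed at 0 there could not have come out higher. miRC11 had 427 stem tags, miRC21 had 42, miRC10 had 18 and miRC24 had 10, and each was listed at 0 in root, leaf, flower and fruit. Counted by sequence, 6 sequences had tags in stem alone, 4 of them with at least 10. The same count was 23 sequences for flower, 9 for leaf, 6 for root and 4 for fruit, so stem did not stand out in the number of such sequences. The hairpin of miRC11, the most abundant of them, lies on chromosome 10 (202330533 to 202330679, plus strand) and is printed with both arms in capitals.
miRC11: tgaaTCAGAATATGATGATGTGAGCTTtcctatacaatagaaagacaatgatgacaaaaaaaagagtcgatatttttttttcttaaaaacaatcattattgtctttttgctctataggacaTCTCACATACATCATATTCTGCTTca
Its 5′ arm had 424 stem tags with a length of 23 nt and its 3′ arm 3 tags with a length of 24 nt. In the fold given in the file 19 bases of the 5′ arm paired with the 3′ arm, where the median over 124 hairpins with both arms placed was 17. In miRC21 this number was 14, and in miRC10 and miRC24 it was 18. The arms of miRC11 are longer than the 21 nt of most sequences with stem tags, so its number is not directly comparable with the median. Both 3′ ends of the duplex overhung by 2 nt in 3 of the 4 hairpins with tags in stem alone, miRC10 being the exception. The same held for 114 of the 124 hairpins. The candidate miRC16 was abundant in every tissue, with 11061 stem tags and a log2 ratio of 0.33 that became -0.25 under another scaling. No source used here names the genome build of the positions, and what genes lie there was not analysed here.

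Over single sequences, 30 of the 159 with at least 10 tags (18.9%) were at least 2-fold higher in stem than the mean of the others and 75 (47.2%) at least 2-fold lower, 42 of the latter listed at 0 in stem. With 100 or more stem tags there were 11 higher sequences: miR4376-5p, miR156h-5p, miR164a-5p, miR164b-5p, miR390b-5p, miR390a-5p, both arms of miR4414b, miRC11-5p, miR398c-3p and miR403-3p. Of the 25 families less than 2-fold apart as a whole, 7 held at least 1 sequence higher and at least 1 lower, among them miR156, miR172 and miR397. In miR172 and miR397 the higher sequence had few stem tags, 18 for the passenger miR172a-5p and 11 for miR397b.

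As a description of the whole profile, the share of tags that stem had in common with another library, summed over sequences, was 66.9% for fruit, 65.5% for leaf, 60.8% for flower and 59.2% for root. Over the 57 families Spearman's rho between stem and each other tissue was 0.80 for root, 0.79 for leaf and for fruit, and 0.67 for flower. Stem was thus nearest to fruit and leaf by shared tags, and farthest from flower by the order of families. The measures disagreed on root, which was farthest by shared tags and nearest, by a small margin, by the order of families. Much of the share in common with fruit was the miR166a to miR166g form, with 35.0% of the listed tags in stem and 34.4% in fruit. Tags beginning with A were 15.8% in stem, second to 17.7% in leaf and above 8.45% in root, 4.81% in fruit and 1.87% in flower, and most of those in stem were miR4376.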

How the data were processed

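The deposited file is a genome annotation in GFF version 3 whose hairpins were found with a plant setting of MIREAP, per the file headers. Each mature sequence carries a tag count for the 5 libraries in its deposited attribute text, and no scaling is recorded there. No source used here gives library totals, aligner, trimming, genome build or the rule for tags with several matches. Per the labels' protocols, Trizol was used for RNA and an Illumina kit with a HiSeq2000 for the 5 libraries. Each library's extraction label names root material.

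Of 245 sequences, 36 stood on several hairpins, and 18 of these carried unequal counts on their hairpins, so the highest count was used once. Counts were divided by the listed total of the library and multiplied by 1000000. Stem was set against the mean of the other 4 tissues on the scale log2(value + 1), which understates differences of low families, and against each tissue as a ratio with a 95% interval by the exact binomial method on both counts. Shares have Clopper-Pearson intervals. Families with fewer than 10 tags in all were left out of the comparison. Listed totals were set beside 3 further scalings, namely median-of-ratios over 31 families, totals without miR166, and counts summed over hairpins. For 23 families the guide arm was assigned from general knowledge. The calling code was run on simulated counts in which families that were not rare were raised far past 2-fold in stem. That run does not bear on calls near the limit, on families with few tags or on variation between libraries of the same tissue. Python 3.11.15, pandas 2.3.3 and scipy 1.17.1 were used.

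Families to name were the 10 with most stem tags, the 10 at each end of the log2 ratio and the members of 11 lists by target class. The members and lists were chosen with earlier results of these data known, and single forms within families were chosen after their values were seen.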

Additional observations from a re-analysis of the deposited data

How the results depend on the processing

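No paired analysis was possible because each tissue has 1 library. Numbers of families higher or lower in stem moved by over 1.5 times mainly with the reference. Against the median instead of the mean of the other tissues 20 families were higher and 10 lower, and 54 sequences higher and 40 lower. With a minimum of 50 tags 18 sequences were higher and 41 lower. Under median-of-ratios scaling, which shifted the median family by -0.49 (log2), stem was highest in 7 families: miR164, miR4376, miR4414, miRC10, miRC11, miRC21 and miRC24. Summing over hairpins shifted it by -0.28. With guide arms alone stem was lowest in 3 families.

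Leaving out 1 other library at a time gave between 10 and 17 families higher, 18 and 20 lower, 13 and 21 highest in stem and 7 and 8 lowest, and between 31 and 42 sequences higher and 62 and 76 lower. The 21 families highest in stem were those without root. The direction turned for miR408 (log2 ratio 4.28 against the median, between -1.54 and 4.80 on leaving out a library, the latter without leaf, and 0.33 with guide arms alone, where stem had 2 tags) and for miRC2 (0.98 against the median, and between -1.54 and 1.54 on leaving out a library, the latter without root). Pooling the other libraries, a pseudocount of 10, values at 0 taken as 4 tags, no minimum, the lowest count over hairpins, and leaving out the shorter of nested sequences (chosen after seeing the data) kept the 12 higher families. Fewer were kept under other settings: 10 under median-of-ratios scaling (without miR390 and miRC7), 10 with summed hairpins (without miR390 and miRC28), 10 without flower (miRC7 and miRC28 lost), 11 without root and 11 with totals lacking miR166 (miRC7 lost in both), 11 without fruit (miR390 lost), and 9 with a minimum of 50 tags, which miRC10, miRC21 and miRC24 did not reach. Of the 20 lower families 15 were kept with values at 0 taken as 4 tags. Low tag counts limit what can be said of many candidates.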

Other observations

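Among sequences with few tags, some forms of miR171 and miR1446 were listed mainly in stem and root. The 3′ arms of miR171h and miR171i had 28 and 13 tags in stem, 16 and 10 in root, 4 and 0 in leaf, and 0 in flower and fruit, whereas the guide form of miR171c to miR171g had 33 in stem and 181 in flower. The 22 nt 5′ form of miR1446 had 67 stem tags, 19 root tags, 13 leaf tags and 0 in the remaining libraries, while of miR1446b-3p leaf had 468 tags and stem 0. That 5′ form stands on 2 hairpins with unequal counts. The hairpin miR1446b had 69 stem tags in all and miR1446a had 0, so the stem lead of this form rests on using the highest count. In miR482, the miR482a and miR482b guides had 453 and 386 stem tags, a ratio of 1.17, against 2.26 in root, 0.793 in leaf, 0.284 in flower and 2.30 in fruit. In miR396, the guide of miR396a and miR396b stood 2.72-fold above that of miR396c in stem and 2.67-fold in root, against 1.34-fold in flower and 1.09-fold in fruit, with 950 and 632 tags in leaf.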
